A study of Homo sapiens with 8 samples.

Results

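Nascent RNA of HCT116 cells, an epithelial line from a human colorectal carcinoma, was compared between a line labelled TO2B-/--TOP2A-mAID (written TOP2B-/- here) and a TOP2A-mAID control line. These were 4 of the 8 libraries of the series, 2 per group, and all 18638 RefSeq gene models in their count table were considered, of which 15273 held enough reads to be tested. Both lines carried mAID, an auxin-inducible degron tag, on TOP2A. The tag marks its protein for destruction when auxin is added, through the plant protein TIR1, which doxycycline switches on. The controls were labelled untreated. The TOP2B-/- libraries carried a treatment label of 14 h of auxin, which the protocol gives at 500 µM after 24 h of doxycycline, while their titles read as control and the names of their count columns as auxin. Loss of TOP2B, the auxin treatment, the doxycycline given before it and any loss of TOP2A protein changed together between the groups. They cannot be told apart, and neither can differences between the lines as such. The sources do not say whether a line was a single clone, how TOP2B was disrupted, or whether the sorting of G1 cells named in the protocol was applied to these libraries, whose titles call them asynchronous. Nothing states that replicates came from separate cultures, so p-values measure the spread between these libraries, which may be technical.

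TOP2A and TOP2B are the type II topoisomerases of human cells: they pass one DNA duplex through a transient break in another and so remove supercoils and knots. TOP2A is made mostly by dividing cells and acts in chromosome condensation and segregation, while TOP2B is made throughout the cell cycle and in non-dividing cells such as neurons, where it acts at promoters and along long genes. Factory-seq recovers RNA still held at sites of transcription from gently lysed nuclei, and reads were counted over whole gene models, introns included, so that a value reports ongoing transcription of a gene more than its store of mRNA.

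Total counts were 33239768 and 36491540 in controls 1 and 2, and 34743109 and 32129400 in TOP2B-/- libraries 1 and 2. Control 2 stood apart. Over 3095 gene models chosen as silent from the DLD-1 controls of the series, the median density of reads was 0.0159 CPM (reads scaled to the effective size of the library) per kb in control 1 and 0.0111 and 0.0268 in TOP2B-/- 1 and 2, but 0.00238 in control 2, in which 2476 models had no read against 927 to 1316 in the other libraries. Values of long, weakly transcribed genes therefore differed between the controls, and this is given below wherever it touches a result.

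Both targeted genes still gave reads in the TOP2B-/- libraries. TOP2B gave 185.7 and 191.7 CPM in the controls and 134.6 and 131.6 CPM in TOP2B-/-, a log2 fold change of -0.50 (SE 0.04, edgeR quasi-likelihood test, adjusted p = 0.027), so reads over its gene model remained in the libraries labelled as knockout. TOP2A gave 641.5 and 703.9 CPM in the controls and 634.0 and 633.9 CPM in TOP2B-/-, with a log2 fold change of -0.09 (edgeR adjusted p = 0.466). The degron acts on protein, which was not measured here. Of the epithelial markers, KRT8 gave 2037 and 2594 CPM in the controls and 1662 and 1428 CPM in TOP2B-/-. EPCAM gave 125.6 and 142.4 against 107.7 and 113.9 CPM, whereas VIL1, an intestinal brush border gene, stayed under 1 CPM in all 4 libraries. These values do not identify the line.

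Across all genes, edgeR called 521 of 15273 (3.41%) at an adjusted p under 0.05, 268 higher and 253 lower (1.66%) in TOP2B-/-. Groups did not overlap in 55.3% of all tested genes, most of which were not called. Genes of chromosome 20 were set apart, because they held 133 of the 253 lower calls and none of the higher ones. Outside chromosome 20, 388 of 14868 genes were called (2.61%), 268 higher (1.8%) and 120 lower (0.807%), and 53 of the rises and 16 of the falls reached a log2 fold change of 1 in size. Rises were thus more numerous than falls outside chromosome 20 in edgeR, while DESeq2 called 1472 higher and 1552 lower there. These counts depended on single libraries: without TOP2B-/- 1 or without TOP2B-/- 2 edgeR called 0 genes (2266 and 1286 genes at an unadjusted p under 0.05), and without control 1 or control 2 it called 2519 or 443. No gene called both in edgeR with all libraries and in DESeq2 or without a control changed sign. These fits share libraries, so this is a weak check, and without a TOP2B-/- library there was no called gene to compare.

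**Figure D1:**
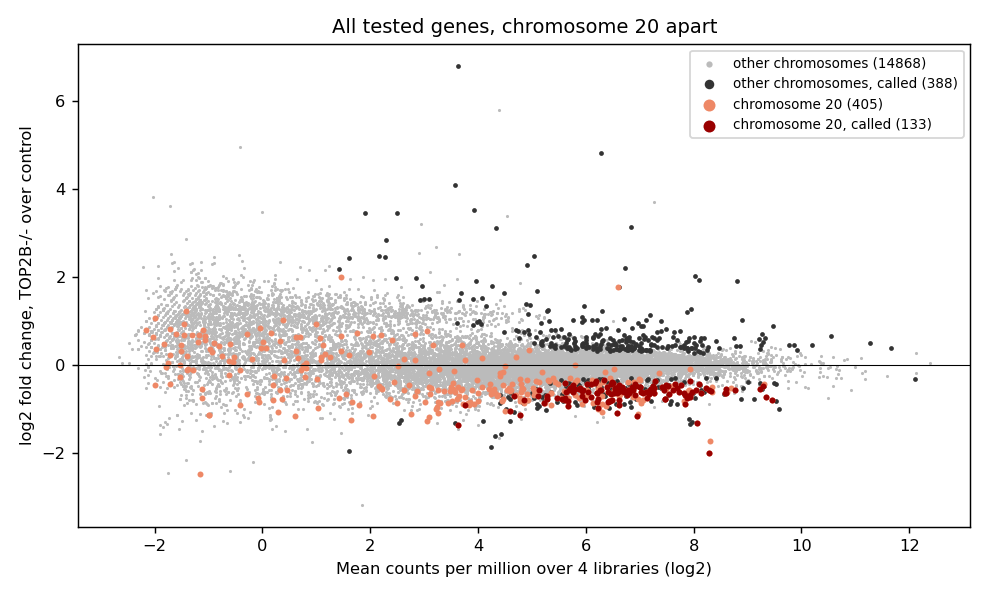
Log2 fold change (TOP2B-/- over control, vertical axis) against mean CPM over the 4 libraries (log2, horizontal axis), 1 point per tested gene. The 133 called genes of chromosome 20 (dark red) all lie below 0, while the 388 called genes of other chromosomes (black) lie on both sides; weakly transcribed genes on the left spread widely and are rarely called.

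Nascent RNA from chromosome 20 was lower in TOP2B-/- along nearly its whole length. Its genes took 3.43% and 3.5% of reads in the controls and 2.31% and 2.3% in TOP2B-/-; in DLD-1, the other colorectal line of the series, which was counted in a separate table, they took between 1.94% and 2.07%. The 405 tested genes of the chromosome had a median log2 fold change of -0.56, that is 0.679 times the control level, with an interquartile range of -0.72 to -0.30. The shift lay outside the spread of single libraries: the 4 pairings of a TOP2B-/- library with a control gave medians of -0.61 to -0.53, while control 2 differed from control 1 by 0.087 and TOP2B-/- 2 from TOP2B-/- 1 by -0.013. The other chromosomes had medians from -0.17 (chromosome 19) to 0.17 (chromosome 4), and in bulk libraries such a shift cannot be told apart from a change in the share of cells that transcribe these genes.

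**Figure D2:**
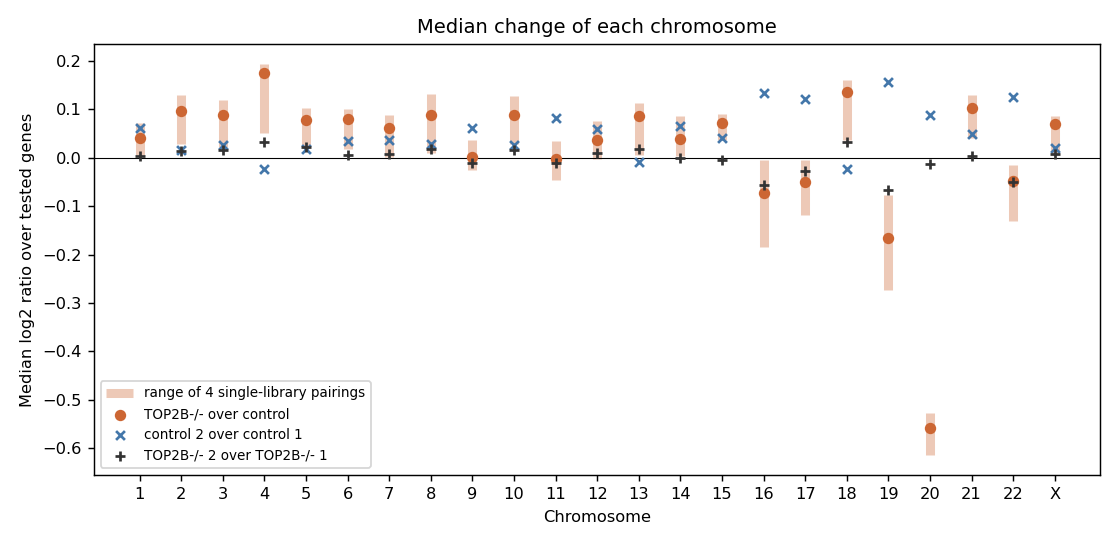
Median log2 ratio over the tested genes of each chromosome (vertical axis) for TOP2B-/- over control (orange points, with the range of the 4 single-library pairings as bars), for control 2 over control 1 (blue crosses) and for TOP2B-/- 2 over TOP2B-/- 1 (black plus signs). Chromosome 20, at -0.56, lies apart from all others, and its within-group differences lie near 0.

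Of the 405 genes, 133 (32.8%) were called, all lower, and edgeR called no chromosome 20 gene higher. Among the 300 with a mean of at least 5 CPM, 96% had a negative value and 44.3% were called, with a median of -0.59. The 105 genes under 5 CPM had a median of 0.155 and 0 calls in edgeR (9 at an unadjusted p under 0.05), so the shift was seen in genes with enough reads to measure it. Along the chromosome, medians over 10-Mb bins ran from -0.38 (10 to 20 Mb, 35 genes) to -0.78 (60 to 70 Mb, 50 genes), and the remaining bins lay between -0.57 and -0.51. The end bin was also the one in which libraries of 1 group differed most, by 0.244 between the controls and by -0.236 between the TOP2B-/- libraries. In running medians over 21 neighbouring genes, 360 of the 405 chromosome 20 genes lay at the centre of a window that was shifted by at least 0.3 with the same sign in all 4 pairings and by more than within groups. The median of the 4 genes at the centres of the windows from SEL1L2 to KIF16B, around MACROD2, was itself 0.755, with 0 of them called in edgeR; MACROD2 and FLRT3, which are 2 of these genes, were at 0.82 and 0.28 on the log2 scale without control 2. On all other chromosomes together only 7 genes met this rule: 6 from PRKACB to CTBS on chromosome 1, with a median of 0.45 and 2 calls, and ANKAR on chromosome 2.

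Among 24 well-known genes of chromosome 20, chosen with earlier results of these data known, 16 fell and none rose, with a median of -0.57. Over the whole chromosome 32.8% of tested genes were called, and 44.3% of those with a mean of at least 5 CPM. The median of the 24 was -0.62 without control 1 and -0.59 without control 2. TOP1, the type I topoisomerase that nicks 1 strand to relax DNA, gave 806.3 and 808.1 CPM in the controls and 495.8 and 481.3 CPM in TOP2B-/- (log2 fold change -0.72, SE 0.04, edgeR adjusted p = 0.025). BCL2L1, which encodes the survival protein BCL-XL, went from 516.3 and 526.8 to 355.1 and 339.7 CPM (-0.59), and ASXL1, a Polycomb-linked chromatin regulator, from 298.0 and 306.0 to 188.6 and 185.5 CPM (-0.69). In each of these genes the lowest control lay well above both TOP2B-/- libraries. AURKA, the mitotic kinase Aurora A, had a value of the same size (-0.59) and missed the threshold (edgeR adjusted p = 0.060). HNF4A, a gut and liver transcription factor, was the only one of the 24 with a positive value (1.02, edgeR adjusted p = 0.709), at 1.67 and 0.056 CPM in the controls and 0.867 and 2.62 CPM in TOP2B-/-, where the groups overlapped.

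Some genes of chromosome 20 fell much further than the chromosome as a whole. ACSS2, which makes acetyl-CoA from acetate in the cytosol and nucleus, had 494.5 and 508.1 CPM in the controls and 125.7 and 123.2 CPM in TOP2B-/-, a log2 fold change of -2.01 (SE 0.04, edgeR adjusted p = 0.015). CYP24A1, the enzyme that inactivates vitamin D, had 358.3 and 406.7 CPM against 153.6 and 152.7 CPM (-1.32, adjusted p = 0.025 in edgeR). The other 8 of the 10 largest called falls were TFAP2C (an AP-2 transcription factor, -1.36), ARFGAP1 (which switches off the GTPase ARF1, -1.16), MYL9 (a myosin light chain, -1.15), TGM2 (transglutaminase 2, -1.09), BMP7 (a BMP ligand, -1.06), CTSA (the lysosomal protease cathepsin A, -0.98), CRNKL1 (a spliceosome protein, -0.94) and TMEM74B (-0.91). All 10 remained called without control 1, and without control 2 ARFGAP1 and TMEM74B were no longer called, at -1.11 and -0.97. Some genes that were not called had values as large, among them SOX18 (-2.48) and LAMA5 (-1.72, edgeR adjusted p = 0.055). The 5 largest positive values, none of them called, belonged to SNAP25 (2.0), MACROD2 (1.77), SIRPG (1.23), FLRT3 (1.06) and HNF4A. All 5 were smaller without control 2: SNAP25 was then 1.33, MACROD2 0.82, SIRPG 0.16, FLRT3 0.28 and HNF4A -0.003. MACROD2, for example, gave 80.7 and 7.02 CPM in the controls and 131.2 and 167.3 CPM in TOP2B-/-.

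To ask which genes differed from the rest of their chromosome, the 406 chromosome 20 genes with enough reads were also fitted alone, scaled to their own totals. This called 8 genes (1.97%), 3 further down and 5 up relative to the chromosome. ACSS2 (-1.45), CYP24A1 (-0.76) and TGM2 (-0.53) were lower. RASSF2, a RAS-binding adaptor (1.27), BFSP1, a lens filament protein (0.73), GGT7, of the gamma-glutamyltransferase family (0.72), FERMT1, the integrin activator kindlin-1 (0.55), and ZMYND8, a chromatin reader (0.47), were higher; the edgeR adjusted p was 0.0014 for ACSS2 and at most 0.047 for the others. On the scale of all genes these 5 did not pass the test, with values of 0.71, 0.17, 0.16, -0.01 and -0.09, in the order just given, while most genes around them were lower. The 8 calls were 4 without control 1, 1 without control 2, 0 without TOP2B-/- 1 and 3 without TOP2B-/- 2.

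Outside chromosome 20, the 10 largest called rises were of genes at 0.113 to 28.3 CPM in the controls. ZNF182, a zinc finger gene on chromosome X (47974851 to 48003995, GRCh38), gave 0.327 and 0.113 CPM in the controls and 24.9 and 24.3 CPM in TOP2B-/-, a log2 fold change of 6.79 (SE 0.50, edgeR adjusted p = 0.025). Its control values were near what the read density over silent genes predicts for a gene of its length, 0.463 and 0.0695 CPM. ZNF804A, another zinc finger gene (chromosome 2, 184598366 to 184939487), gave 7.02 and 3.64 CPM against 151.3 and 148.2 CPM (4.82, SE 0.30), where the same density predicts 5.41 and 0.813 CPM in the controls and 3.79 and 9.13 CPM in TOP2B-/-. IAH1, which encodes an esterase (chromosome 2, 9474541 to 9488462), gave 1.28 and 1.38 CPM against 22.1 and 22.9 CPM (4.07, SE 0.13). In all 3 genes both TOP2B-/- libraries lay far above both controls, and the controls of ZNF182 and ZNF804A, but not of IAH1, differed from each other.

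The others of the 10 were ZC4H2, a zinc finger gene of neural development (2.62 and 2.20 CPM in the controls, 28.6 and 26.9 CPM in TOP2B-/-), CYP1B1 and CYP1A1 (described below), GPR173, an orphan G protein-coupled receptor (1.04 and 0.846 CPM, then 11.01 and 9.70 CPM), GRIN2B, an NMDA receptor subunit (28.3 and 18.4 CPM, then 205.0 and 204.5 CPM), SYTL5, a synaptotagmin-like protein (1.31 and 1.07 CPM, then 8.15 and 9.001 CPM), and SAMD5 (10.1 and 9.84 CPM, then 56.9 and 54.3 CPM). Their log2 fold changes ran from 3.53 (ZC4H2) to 2.48 (SAMD5). Of the 10 genes, 4 lie on chromosome X (ZNF182, ZC4H2, GPR173 and SYTL5). All 10 remained called without either control, none was called without TOP2B-/- 1 or TOP2B-/- 2, and the values then lay between 2.40 (SAMD5) and 7.72 (ZNF182).

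Most genes beside these rises were not called. Of their 20 nearest tested neighbours 2 were called, against 2.61% of all genes outside chromosome 20: STXBP5 (0.44) and SASH1 (0.69), which flank SAMD5 on both sides. The median absolute log2 fold change of the 20 was 0.161, and the largest value was that of FSIP2 beside ZNF804A (1.71, not called), with 0.803 and 0.056 CPM in the controls and 0.780 and 2.04 CPM in TOP2B-/-. Beside IAH1, CPSF3 and ADAM17, which start or end 1.43 and 0.819 kb from it, gave 0.16 and 0.08. Promoter windows from RefSeq (GRCh38.p14) were used for 7 of the 10, those with a start site close to that of the gene model. In the 250 bases before the start site they held 0 to 33 CG pairs with a median of 22, against a median of 11 (interquartile range 3 to 23) over 35116 promoters. The windows of the largest called falls outside chromosome 20 had a median of 19. Those of the called cholesterol synthesis enzymes, described below, had 23, so this CG content was not particular to the rises. The windows of IAH1 and ZC4H2 are shown because these 2 genes rose from a low level with flat neighbours and because their CG content differs from that of SYTL5, whose window holds 0 CG pairs. Each is written 5′ to 3′ on the strand of the gene and CG pairs are in capitals: IAH1 is chr2:9474301-9474550 on the plus strand with 27 CG pairs, and ZC4H2 is chrX:65034742-65034991 on the minus strand with 22.
IAH1: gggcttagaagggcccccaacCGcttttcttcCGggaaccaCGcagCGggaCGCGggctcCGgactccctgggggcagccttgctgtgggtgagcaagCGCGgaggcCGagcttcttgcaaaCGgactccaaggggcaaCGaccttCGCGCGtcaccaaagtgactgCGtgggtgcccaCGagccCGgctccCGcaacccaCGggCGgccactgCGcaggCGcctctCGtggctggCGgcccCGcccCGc
ZC4H2: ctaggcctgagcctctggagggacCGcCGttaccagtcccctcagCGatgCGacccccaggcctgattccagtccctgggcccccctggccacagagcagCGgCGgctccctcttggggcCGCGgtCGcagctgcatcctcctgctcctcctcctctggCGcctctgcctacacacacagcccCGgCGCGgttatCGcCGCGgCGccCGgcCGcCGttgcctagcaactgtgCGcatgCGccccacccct

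**Figure D3:**
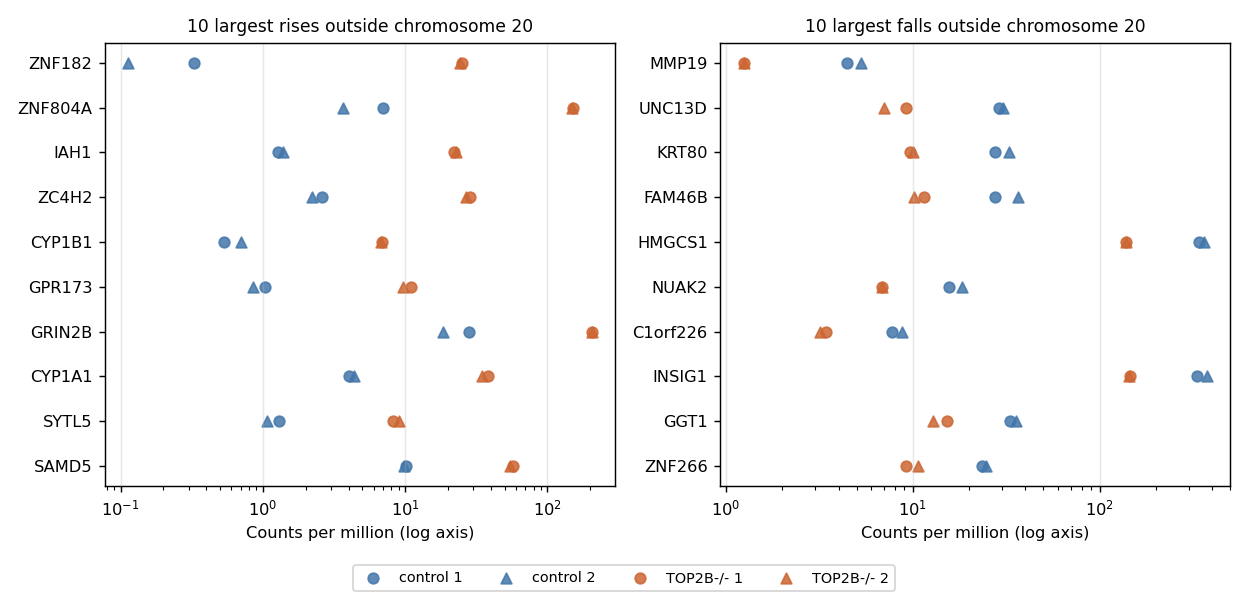
CPM (horizontal log axis) of the 10 largest called rises (left) and 10 largest called falls (right) outside chromosome 20, with controls in blue, TOP2B-/- in orange and replicates as circles and triangles. In every gene shown the groups are separated by far more than the libraries of 1 group; the controls of ZNF182 and ZNF804A differ most.

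Falls outside chromosome 20 were smaller. MMP19, a matrix metalloproteinase, gave 4.46 and 5.27 CPM in the controls and 1.24 and 1.25 CPM in TOP2B-/- (-1.96, SE 0.23, edgeR adjusted p = 0.042). UNC13D, which primes secretory granules for release, gave 28.8 and 30.2 CPM against 9.16 and 7.02 CPM (-1.86), and KRT80, an epithelial keratin, gave 27.4 and 32.9 CPM against 9.65 and 9.98 CPM (-1.62). FAM46B, of a family of RNA nucleotidyltransferases, followed at -1.57, then HMGCS1 (-1.35), the AMPK-related kinase NUAK2 (-1.32), C1orf226 (-1.32), INSIG1 (-1.29), GGT1 (-1.29) and the zinc finger gene ZNF266 (-1.28). GGT1 has near-identical copies in the genome and its model overlaps LRRC75B, so its reads are uncertain. Without control 2, MMP19 (-1.90), NUAK2 (-1.27) and C1orf226 (-1.30) were no longer called, and without TOP2B-/- 1 or TOP2B-/- 2 none of the 10 was. Of 20 neighbours of these genes 1 was called, NOS1AP (-0.71), beside C1orf226.

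HMGCS1 and INSIG1 belong to the pathway of cholesterol synthesis and its control. Cholesterol is built from acetyl-CoA through mevalonate, isoprenoids, squalene and lanosterol, and when membranes run low in sterol the transcription factor SREBP2 (SREBF2) is carried by SCAP from the endoplasmic reticulum, where INSIG1 holds it back, and raises the genes of this pathway. Of 20 cholesterol synthesis enzymes, all tested and none on chromosome 20, 10 fell and 0 rose; 19 had a negative value and the median was -0.61, against 0.039 over all genes outside chromosome 20 and lower calls in 0.807% of them. The list and the lists that follow were chosen with earlier results of these data known.

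Falls ran through the whole pathway. At its entry HMGCS1, which makes HMG-CoA, gave 341.7 and 360.5 CPM in the controls and 138.3 and 137.7 CPM in TOP2B-/- (SE 0.05, edgeR adjusted p = 0.017). Both controls lay above both TOP2B-/- libraries, and libraries of 1 group were close. Of the mevalonate and isoprenoid steps MVK (-0.73), IDI1 (-0.95) and FDPS (-0.88) fell, and MVD had a larger value (-1.29) that missed the threshold (edgeR adjusted p = 0.052), with 93.9 and 116.5 CPM in the controls and 48.5 and 37.4 CPM in TOP2B-/-. Of the squalene and sterol steps FDFT1 (-0.90), SQLE (-0.71), LSS (-0.85), CYP51A1 (-0.63) and MSMO1 (-0.88) fell. The late enzyme DHCR7 (-0.59) did not pass, nor did PMVK (0.15), the only enzyme with a positive value. The count of 10 was 16 without control 1, 10 without control 2, and 0 without TOP2B-/- 1 or TOP2B-/- 2, where the median was -0.68 and -0.63.

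The regulators and transport genes of the pathway fell in part. Of 17 tested, 5 fell, 0 rose and the median was -0.38, while lower calls made up 0.807% of all genes outside chromosome 20. INSIG1, itself induced by SREBP2 and a brake on it, gave 331.5 and 376.6 CPM in the controls and 145.2 and 143.6 CPM in TOP2B-/- (SE 0.08). SREBF2 gave 342.3 and 363.3 CPM against 238.1 and 220.1 CPM (-0.62, SE 0.06, edgeR adjusted p = 0.032). NPC1, which exports cholesterol from lysosomes, and STARD4, a sterol carrier, were lower by -0.69 and -0.48. The sensor SCAP (0.02), the proteases MBTPS1 (-0.15) and MBTPS2 (0.10) that release SREBP, and INSIG2 (-0.09) did not pass, and ABCA1 (0.18) and ABCG1 (0.23), the exporters induced by high sterol, did not pass either. SREBF1 had a value of -0.65 with controls of 468.3 and 581.9 CPM and TOP2B-/- libraries of 374.2 and 293.0 CPM (edgeR adjusted p = 0.136).

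SREBP proteins bind the sterol regulatory element, and the promoter of SREBF2 is a textbook example of one. The letters TCACNCCAC, searched on both strands of the 250 bases before the start, occur in 0.883% of 35116 RefSeq promoters. Windows were available for 7 of the 10 enzymes that fell, of which 0 hold these letters, and for 4 of the 5 regulators and transport genes, of which 1 does. That window, of SREBF2 (chr22:41832855-41833104, GRCh38.p14, plus strand), is shown with the match in capitals.
SREBF2: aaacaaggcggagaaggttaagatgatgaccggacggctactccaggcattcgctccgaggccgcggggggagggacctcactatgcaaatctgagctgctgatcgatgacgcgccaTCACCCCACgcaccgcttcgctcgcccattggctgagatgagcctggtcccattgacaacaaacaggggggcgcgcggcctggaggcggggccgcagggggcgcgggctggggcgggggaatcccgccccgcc

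Supply of acetyl-CoA and fatty acid synthesis was lower in fewer genes. Over all tested genes, edgeR called 1.75% higher and 1.66% lower. Of 20 genes of this list tested, 2 of them on chromosome 20, 4 fell and none rose, with a median of -0.26. The 4 were ACSS2 on chromosome 20, ACLY, which makes acetyl-CoA from citrate (443.2 and 502.7 CPM in the controls, 310.5 and 297.0 CPM in TOP2B-/-, -0.64), LPIN1, a phosphatidate phosphatase (-0.89), and PNPLA3, a lipid droplet hydrolase (-0.67). The fatty acid enzymes FASN (-0.76, edgeR adjusted p = 0.128), SCD (-0.52, 0.058) and ACACA (-0.14, 0.255) did not pass. FASN gave 1608 and 2018 CPM in the controls and 1222 and 914.6 CPM in TOP2B-/-. The median of the list was -0.32 without control 1 and -0.30 without control 2. In insulin and IGF signalling, which had 1 rise and 1 fall among 20 tested genes and a median near 0 (0.007), IRS1, the adaptor of the insulin receptor, gave 334.6 and 339.7 CPM in the controls and 143.4 and 141.8 CPM in TOP2B-/- (-1.24, SE 0.04, edgeR adjusted p = 0.017). GRB10, an adaptor that dampens the same receptor, rose from 67.1 and 63.7 to 88.7 and 87.9 CPM (0.43) and was not called without control 2 (edgeR adjusted p = 0.065). The receptors INSR (-0.28) and IGF1R (-0.18) and the adaptor IRS2 (-0.52) did not pass.

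Targets of the aryl hydrocarbon receptor rose. The receptor, AHR, binds planar aromatic ligands, among them several indoles, pairs with ARNT and induces enzymes that oxidise such compounds, along with its own repressors. Of 9 tested genes of this list 4 rose and 0 fell, while higher calls made up 1.8% of all genes outside chromosome 20; the median was 0.155, and 0.51, 0.44, 0.49 and 0.17 without control 1, control 2, TOP2B-/- 1 and TOP2B-/- 2. CYP1A1 gave 4.01 and 4.40 CPM in the controls and 38.0 and 34.7 CPM in TOP2B-/- (3.11, SE 0.12, edgeR adjusted p = 0.018). CYP1B1 gave 0.535 and 0.705 CPM against 6.91 and 6.77 CPM (3.46, SE 0.25, edgeR adjusted p = 0.025). The feedback repressors AHRR, at 49.98 and 48.5 against 105.2 and 93.5 CPM, and TIPARP, at 65.4 and 71.0 against 139.5 and 140.1 CPM, rose by 1.01 and 1.03. In all 4 genes the groups were apart and libraries of 1 group close.

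AHR itself (0.07) and ARNT (-0.10) did not pass, nor did NQO1 (0.15), SLC7A5 (-0.05) or ALDH3A1 (-0.54), whose values of 0.535, 0.338, 0.231 and 0.366 CPM were too low to measure a change. The 4 rises remained called without either control and were not called without TOP2B-/- 1 or TOP2B-/- 2, where CYP1A1 was 3.001 and 3.17. Auxin is indole-3-acetic acid and only the TOP2B-/- libraries carried the auxin label. In these genes genotype, auxin and doxycycline therefore cannot be told apart. The core letters of the AHR site, GCGTG, occur on either strand in 32.2% of the same promoter windows. Both called genes with a window, CYP1A1 and TIPARP, hold them, as do 5 of the 7 windows of cholesterol enzymes that fell, 3 of the 4 of their called regulators and transport genes and 4 of the 7 of the largest called falls. The letters of the sterol element also occur in 1 of these 2 AHR windows. The window of CYP1A1 (chr15:74725529-74725778, GRCh38.p14, minus strand) is shown with the match in capitals.
CYP1A1: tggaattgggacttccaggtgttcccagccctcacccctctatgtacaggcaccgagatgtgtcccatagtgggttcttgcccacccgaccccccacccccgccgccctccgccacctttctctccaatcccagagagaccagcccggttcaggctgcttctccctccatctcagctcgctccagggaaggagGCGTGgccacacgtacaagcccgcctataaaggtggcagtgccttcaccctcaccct

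**Figure D4:**
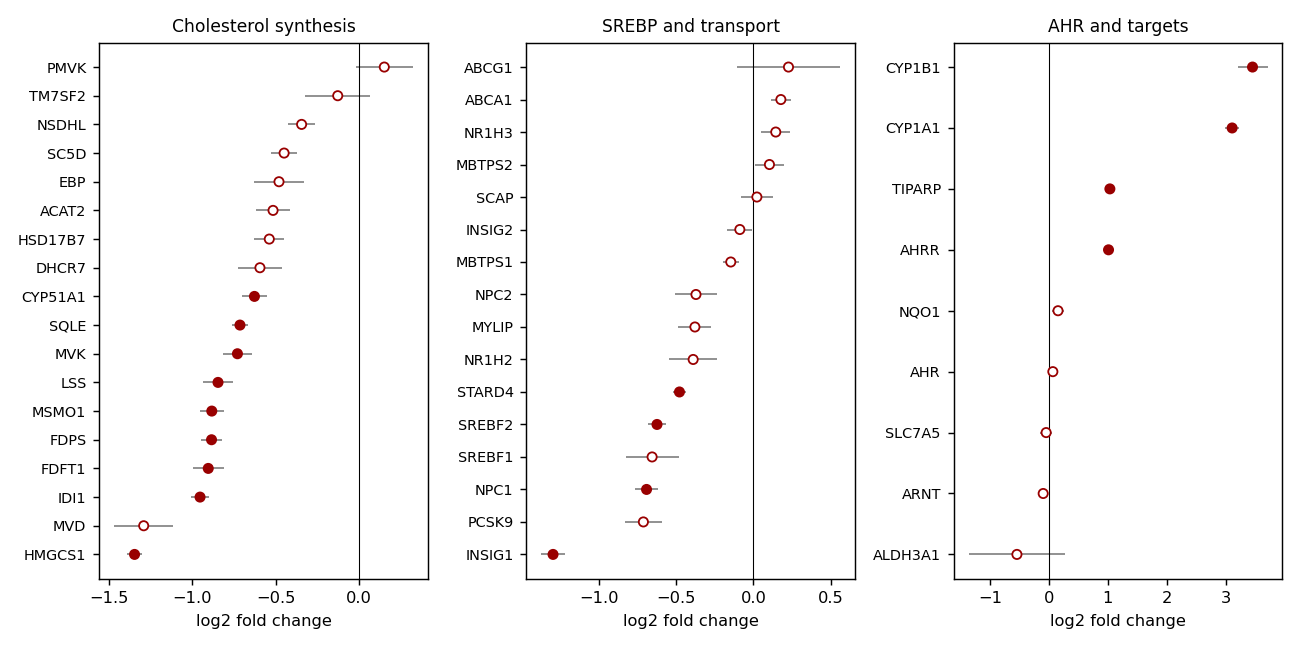
Log2 fold change with its standard error (horizontal axis, lines mark the SE) of 18 cholesterol synthesis enzymes (left), 16 SREBP regulators or cholesterol transport genes (middle) and 9 AHR pathway genes (right). Filled points were called in edgeR: 9, 4 and 4 of the genes drawn. The horizontal scale differs between panels.

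Lists tied to topoisomerase function and DNA damage had medians near 0 or slightly below it. Among 16 topoisomerases and repair enzymes, with a median of -0.03, 3 were called in edgeR and 9 in DESeq2. Over all 15273 tested genes edgeR called 3.41%, DESeq2 called 3295, and 3492 had an unadjusted p under 0.05. Of the 3 called in edgeR, TOP2B and TOP1 fell. TDP1, which removes TOP1 trapped on DNA, rose from 56.3 and 54.8 to 85.6 and 83.8 CPM (0.61, SE 0.04, edgeR adjusted p = 0.025). TDP2, which removes trapped TOP2, gave 0.16 and TOP3A -0.36, and neither passed. Of 20 genes of the DNA break response 0 were called in edgeR (6 at an unadjusted p under 0.05, and 6 in DESeq2), with a median of 0.041, and ATM, its apical kinase, gave 0.07. Of 26 p53 targets, with a median of -0.18, 1 fell in edgeR (12 were called in DESeq2), the repair gene DDB2 (-0.48), while CDKN1A (-0.27) and MDM2 (-0.21) did not pass. Mitotic genes (27 tested) had 2 falls, TPX2 (-0.63) and UBE2C (-0.80), and replication genes (35 tested) had 3, PCNA (-0.79), MCM8 (-0.51) and GINS1 (-0.42). All 5 lie on chromosome 20, and outside it the medians of these lists were -0.069 and -0.035 with no call in edgeR. Without control 1 the medians of the whole break response, p53, mitotic and replication lists were 0.023, -0.27, -0.14 and -0.12. Without control 2 they were -0.019, -0.16, -0.10 and -0.076.

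Over all 15273 tested genes, edgeR called 1.75% higher and 1.66% lower, 3492 had an unadjusted p under 0.05, and DESeq2 called 3295. Among immediate early genes, the first to be transcribed after a growth signal, 23 of 29 had a negative value and the median was -0.31. Only DUSP5, a MAP kinase phosphatase, was called (142.6 and 166.1 CPM in the controls, 88.9 and 90.2 CPM in TOP2B-/-, -0.79). EGR1 (-0.65), FOS (-0.64) and MYC (-0.27) did not pass, and control 2 lay above control 1 by a median of 0.251 in this list. The median log2 fold change of the list was -0.52 without control 1 and -0.15 without control 2. The ATF4 amino acid response (26 tested, median -0.12) had 1 rise, SLC7A11, the cystine importer, from 118.0 and 119.9 to 197.6 and 201.5 CPM (0.75). The median of that list was -0.24 without control 1 and -0.076 without control 2. Of 19 Wnt feedback and stem cell targets 0 were called in edgeR (7 at an unadjusted p under 0.05, and 4 in DESeq2), with a median of 0.057, AXIN2 giving 0.32 and LGR5 1.23 with 4 values from 0.085 to 3.66 CPM. Of 32 interferon-stimulated genes 25 had a positive value, with a median of 0.31, and PARP9 (16.7 and 16.8 CPM in the controls, 27.1 and 28.6 CPM in TOP2B-/-, 0.74) and PARP14 (0.36) rose; neither was called without control 2. Vitamin D and retinoid catabolism (10 tested, median -0.13) had 1 fall, CYP24A1, while the receptor VDR gave 0.06.

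Genes that act in neurons held a few clear rises and many values that differed between libraries of the same group. Among 43 ephrins, their receptors and axon guidance genes 3 rose and 2 fell, against 1.8% and 0.807% of all genes outside chromosome 20. The median was 0.10, and -0.005 without control 2; without control 1, 20 were called, as were 2519 of 15743 genes tested. EFNA5, an ephrin ligand, gave 41.0 and 34.2 CPM in the controls and 178.7 and 168.6 CPM in TOP2B-/- (2.21, SE 0.11, edgeR adjusted p = 0.025). NRP1, a semaphorin co-receptor, went from 41.2 and 41.3 to 78.5 and 82.4 CPM (0.96), and the semaphorin SEMA3E from 9.87 and 7.498 to 24.2 and 25.8 CPM (1.52), whereas SEMA3C (-0.54) and SEMA6A (-0.85) fell. Of 13 protocadherins and giant cadherins PCDH7, at 109.0 and 96.7 against 425.2 and 411.6 CPM (2.02, SE 0.07), and FAT4, at 19.7 and 17.8 against 41.4 and 41.9 CPM (1.15), rose, and 0 fell; without control 1, 8 were called. These genes were apart between groups in every pairing of libraries.

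The 44 synaptic receptor and adhesion genes show the other side. Their median log2 fold change was 1.11 and 41 of 44 values were positive. Only GRIN2B was called in edgeR, where higher calls made up 1.8% of all genes outside chromosome 20. DESeq2 called 4 of the 44, and 3024 of all genes outside chromosome 20. Control 2 lay below control 1 by a median of 4.14 on the log2 scale, and the 44 genes together gave 772 and 257 CPM in the controls and 797 and 1270 CPM in TOP2B-/-. TOP2B-/- 2 was thus highest and control 2 lowest, and these are also the libraries with the highest and the lowest read density over silent genes. Without control 2 the median was 0.140, and without control 1 it was 4.70. Without TOP2B-/- 1 the median was 1.54 and without TOP2B-/- 2 it was 0.397, with 0 calls in edgeR in both cases. GRIN2B was different in kind: it gave 28.3 and 18.4 CPM against 205.0 and 204.5 CPM. Its log2 fold change stayed between 2.79 (without control 2) and 3.47 (without control 1) when any 1 library was left out. The protocadherin list (median 1.04, 0.190 without control 2 and 0.48 without TOP2B-/- 2) moved in the same way, apart from its 2 called genes.

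Markers of cell types were compared because epithelial and mesenchymal genes bear on the identity of the lines. Of 14 colon epithelial markers 1 was called, CDH1 (E-cadherin), which fell from 96.0 and 102.7 to 62.4 and 61.1 CPM (-0.69, edgeR adjusted p = 0.026). The 14 together gave 4080 and 5160 CPM in the controls and 3350 and 2960 CPM in TOP2B-/-, with a median of -0.49 and 10 genes lower in both TOP2B-/- libraries than in both controls, where 54.7% of all genes outside chromosome 20 had groups that did not overlap in either direction. Their median was -0.67 without control 1 and -0.37 without control 2. Over all 15273 tested genes, edgeR called 1.75% higher and 1.66% lower, 3492 had an unadjusted p under 0.05, and DESeq2 called 3295. Of 14 mesenchymal markers, with a median of 0.85 (0.24 without control 2), ZEB1, a repressor of CDH1, rose from 138.6 and 123.8 to 233.7 and 223.5 CPM (0.80, edgeR adjusted p = 0.030). Their sum was 206 and 187 CPM in the controls and 290 and 284 CPM in TOP2B-/-, most of it ZEB1; VIM (0.981 and 0.846 CPM, then 2.89 and 2.44 CPM) did not pass. Neural markers (10 tested, median 0.39 and -0.005 without control 2, 124 and 132 against 123 and 132 CPM in sum) and blood and endothelial markers (8 tested, median 0.21 and -0.31 without control 2, 26.9 and 19.8 against 18.4 and 26.2 CPM) had 0 calls in edgeR, with 1 gene of each at an unadjusted p under 0.05 and 1 and 0 calls in DESeq2. No member of these 4 lists was at 0 in all 4 libraries, and the part that a shift in cell state plays in the other lists was not tested.

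Longer genes tended to have higher values in TOP2B-/-, but the controls differed from each other along the same axis. Genes outside chromosome 20 were put in 10 bins of about equal size by span. The median log2 fold change rose from -0.23 in the bin of shortest genes (median span 3.54 kb) to 0.30 in the bin of longest genes (277 kb). Against control 1 alone the longest genes gave -0.064 for TOP2B-/- 1 and 0.234 for TOP2B-/- 2, and against control 2 they gave 0.372 and 0.431. Control 2 itself lay 0.213 below control 1 in the longest genes and 0.298 above it in the shortest. Called genes were longer in both directions: the median span was 102 kb for genes called higher and 57.3 kb for genes called lower, against 31.4 kb for genes not called. The median control level of these sets was 76.2, 98.7 and 22.9 CPM, so called genes also had more reads. In the bin of longest genes 64 rose and 18 fell, and in the bin of shortest genes 0 rose and 2 fell in edgeR.

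**Figure D5:**
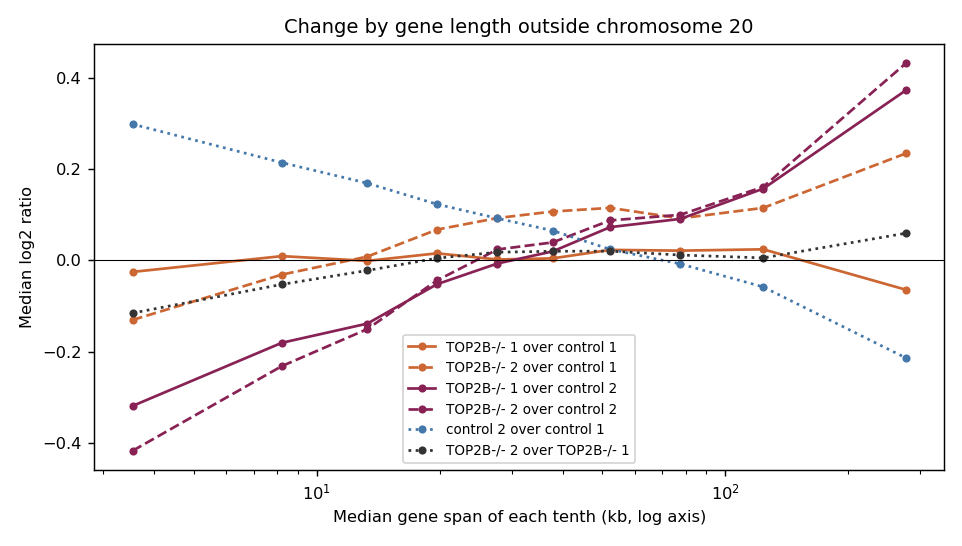
Median log2 ratio (vertical axis) of genes outside chromosome 20 in 10 bins of gene span (horizontal log axis, kb), for each pairing of a TOP2B-/- library with control 1 (orange) or control 2 (purple), and for replicates within groups (dotted). The slope is steeper in pairings with control 2, and the dotted blue line shows a slope of the opposite sign between the controls.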

How the data were processed

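The 4 HCT116 factory-seq libraries were grouped by their labels, 2 per group. The authors deposited raw read counts per RefSeq gene model; the submitters' processing notes name STAR, DESeq2 and hg38, with no versions. The sources used here do not give whether counting used strand, so reads of overlapping genes cannot be told apart. The deposited comparison tables, which hold the authors' fold changes and p-values, were not used, and 0 columns of per-sample values were left unmapped. Counts were filtered with filterByExpr, scaled by TMM and tested in edgeR 4.0.16 (R 4.3.3) with the quasi-likelihood test, 2 residual degrees of freedom and Benjamini-Hochberg adjustment at 0.05. CPM are TMM-scaled, and 1443 models were counted over less than their span. DESeq2 1.42.0, other scalings and filters, a fold threshold and leaving out libraries were alternatives. The genes named are the 10 largest called rises and 10 largest called falls outside chromosome 20, the 10 largest called falls and 5 largest positive values, called or not, on it, and members of the gene lists, some of which are counted but not reported here by name. The members, lists and rules were chosen with earlier results of these data known. Predicted background is the median read density of silent genes times gene length. Total counts set the precision of each value; reads are not independent molecules.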

Additional observations from a re-analysis of the deposited data

How the results depend on the processing

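The number of called genes depended strongly on the processing. No gene called in both settings changed sign under any alternative that called genes, but the fits share libraries, so this is a weak check. Over all genes, outside chromosome 20 and on it, edgeR called 521, 388 and 133. DESeq2 called 3295, 3024 and 271, with no independent filtering 3145, 2874 and 271, and, over all models with at least 1 read (an alternative chosen after seeing the data), 1851, 1600 and 251. A minimum mean of 5 CPM gave 1221, 996 and 225, and a fold threshold of 0.3 on the log2 scale gave 41, 36 and 5. RLE size factors, library totals alone, scaling on genes outside chromosome 20 and no count filter gave 424 to 734 calls over all genes. Fitted alone, genes outside chromosome 20 gave 229 calls (also chosen after seeing the data). Leaving out 1 library gave 0 to 2519, 0 to 2271 and 0 to 248, with 0 whenever a TOP2B-/- library was left out; the lone library was then assumed to vary like the controls. With the replicate number as a block 0, 0 and 0 genes were called (2177 at an unadjusted p under 0.05). The labels do not say that numbers pair the samples, and the replicate differences of the groups correlated at -0.82 over 15273 genes, so numbers were not taken as pairs; the crossed block, added after seeing the data, called 1808, 1571 and 237. The share of calls that were higher was 51.4%, and 35.9% without control 2, 68.3% with the fold threshold, 69% with genes outside chromosome 20 fitted alone and 36.9% with the crossed block. Of the genes called relative to chromosome 20, 8 in edgeR, the replicate block left 1 and leaving out 1 library 0 to 4. The median of chromosome 20, -0.56, was -0.61 for TOP2B-/- 2 against control 2. Across genes, span and fold change had a Spearman correlation of 0.41, which was -0.032 for TOP2B-/- 1 against control 1 and -0.61 for control 2 against control 1. The cause of these differences was not tested. Depth limits weakly transcribed genes most, where control 2 had few reads.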

Other observations

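Some genes outside the lists described are given here, chosen after their values were seen and standing for no group; all those in this paragraph were called in edgeR. EREG, an epidermal growth factor receptor ligand of colorectal cells, gave 297.8 and 331.1 CPM in the controls and 628.7 and 645.8 CPM in TOP2B-/- (log2 fold change 1.02). BTC, another ligand of that receptor, gave 4.49 and 4.43 CPM against 12.0 and 13.2 CPM. BMP4 went from 14.9 and 17.7 to 44.0 and 41.3 CPM (1.39), TGFB2 from 8.65 and 7.10 to 20.6 and 23.6 CPM (1.49) and WNT16 from 16.0 and 16.6 to 48.9 and 55.1 CPM (1.67). In each of these genes both TOP2B-/- libraries lay above both controls, while groups did not overlap, in either direction, in 55.3% of all genes tested. Of long genes best known from neurons, IL1RAPL1, a synapse organiser, rose from 205.2 and 174.5 to 722.1 and 691.8 CPM (1.90), and SYT1, the calcium sensor of synaptic vesicles, from 120.2 and 107.8 to 441.0 and 422.7 CPM (1.92). MYH9, non-muscle myosin, was among the strongly transcribed genes that fell, from 966 and 1083 to 539 and 484 CPM (-1.0).

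Some of the largest differences missed the threshold, in genes whose control libraries were far apart; these too were chosen after their values were seen. VSNL1, a neuronal calcium sensor, gave 1.37 and 0.113 CPM in the controls and 41.2 and 40.6 CPM in TOP2B-/- (5.80, edgeR adjusted p = 0.072). C10orf11 gave 33.3 and 11.2 CPM against 290.0 and 283.7 CPM (edgeR adjusted p = 0.056). In both genes the groups were further apart than the controls were from each other.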
